A study of Rattus norvegicus with 3 samples.

Results

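The Zic genes described here are Zic1, Zic2, Zic4 and Zic5, 4 of the 29772 genes counted in a single-cell RNA study of the embryonic rat cortex. They were picked by symbol, and the choice was made with earlier results of these same data known: the unique molecular identifiers (UMIs, each standing for a captured RNA molecule) of these genes over radial glia, Cajal-Retzius cells, meningeal cells and Fgf17-positive progenitors and over the 3 library labels. Every level below is therefore a description, and no test is given. The study measured polyadenylated RNA in freshly prepared cells of wildtype rat cerebral cortex, freed from the tissue with papain, with the 10x Genomics 3' kit. There are 3 libraries, 1 each for the embryonic day labels E14, E16 and E18, with no treatment, no altered allele and no named animals. With 1 library per label, a difference between labels cannot be told apart from a difference between preparations.

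Zic proteins are zinc finger transcription factors related to the Gli proteins that carry hedgehog signals to DNA. In the forebrain they are known from the dorsal and rostral midline, including the septal region, the cortical hem and the choroid plexus, from the meninges that cover the cortex and from the Cajal-Retzius cells that leave midline sources to spread over its surface. Loss of Zic2 disturbs the separation of the hemispheres, a condition called holoprosencephaly, and loss of Zic1 together with Zic4 affects the cerebellum. The genes lie in neighbouring pairs, Zic1 beside Zic4 and Zic2 beside Zic5.

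The Zic5 promoter is shown, with base counts for the matching windows of Zic2 and Zic4, because the neighbours Zic2 and Zic5 ran close together in the levels below. The 250 bases before the annotated start of Zic5, as given by RefSeq for the GRCr8 build on the minus strand at chr15:105973670-105973919, held 9 CpG dinucleotides (capitals) and 57.2% G and C.
Zic5: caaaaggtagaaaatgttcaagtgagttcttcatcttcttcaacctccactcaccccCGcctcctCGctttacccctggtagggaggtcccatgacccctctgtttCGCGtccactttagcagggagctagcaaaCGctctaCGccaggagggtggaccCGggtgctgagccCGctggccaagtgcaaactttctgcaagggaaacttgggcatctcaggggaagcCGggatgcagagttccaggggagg
Of 33469 such rat windows, 38.5% held at least as many CpG dinucleotides. The Zic2 window held 25 CpG dinucleotides and 73.6% G and C, and 9.74% of the windows held at least as many CpG dinucleotides. The Zic4 window held 8 and 43.2%, with 41.6% of windows at or above that number of CpG dinucleotides. Both the Zic2 and the Zic4 window overlap the annotated span of their own gene, while the Zic5 window does not, so the windows are not alike in position. Both strands were searched for the TATA box TATAAA, found in 12.9% of all windows, for the CCAAT box, found in 34.0%, for the GC box GGGCGG, found in 30.5%, and for the Gli site GACCACCCA, found in 0.338%. Of the Zic2, Zic4 and Zic5 windows only that of Zic2 held any, with 4 copies of the GC box. A match describes letters and is not a site.

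After cells with fewer than 1000 genes or more than 10% mitochondrial UMIs and likely doublets were left out, 4286, 4977 and 5431 cells remained for the labels E14, E16 and E18, with median depths of 11199.5, 12264 and 10477 UMIs. Cell classes were rebuilt here from marker genes, with the Zic genes kept out of the clustering. The libraries did not follow the order of their labels in stage genes of radial glia. Hmga2, a gene of early progenitors, stood at 11.9, 225 and 21.5 CPM (UMIs of the gene per 1000000 UMIs of the cells) in E14, E16 and E18, and Aldoc, a gene of maturing glia, at 733, 17.1 and 241 CPM. Lin28b followed Hmga2 with 0, 319 and 26 UMIs, and Tnc followed Aldoc with 117, 0.192 and 7.30 CPM. Each library is therefore called by its label and no time order is read from it. The deposited protocol also speaks of oligo multiplexing and of sorting live human cells, which differs from the description of the samples as fresh rat cells. Between 7 and 8 kept barcodes were shared by each pair of libraries.

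Zic levels were highest in a few cell classes at the edge of the cortex and low in its excitatory neurons. Ordered by the summed level of the 4 genes among groups of at least 30 cells, the highest were the rostral patterning progenitors of E18 (951 CPM), the choroid plexus cells of E16 (844 CPM) and the rostral patterning progenitors of E16 (706 CPM). The GABAergic cells of E16 (619.7 CPM), the choroid plexus cells of E18 (595 CPM) and the meningeal fibroblasts of E16 (532 CPM) came next. Neighbours in this order such as the GABAergic cells of E16 and the choroid plexus cells of E18 did not differ beyond their counting intervals. Cajal-Retzius cells lay at 304 CPM in E16 and 405 CPM in E18, and radial glia between 97.0 and 119.6 CPM. Intermediate progenitors held 19.7 to 51.1 CPM, newborn excitatory neurons 5.32 to 16.9 CPM, and maturing excitatory neurons 0.479 CPM in E14 and 2.57 CPM in E18. Intervals here and below are exact 95% intervals that cover counting error only.

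**Figure D1:**
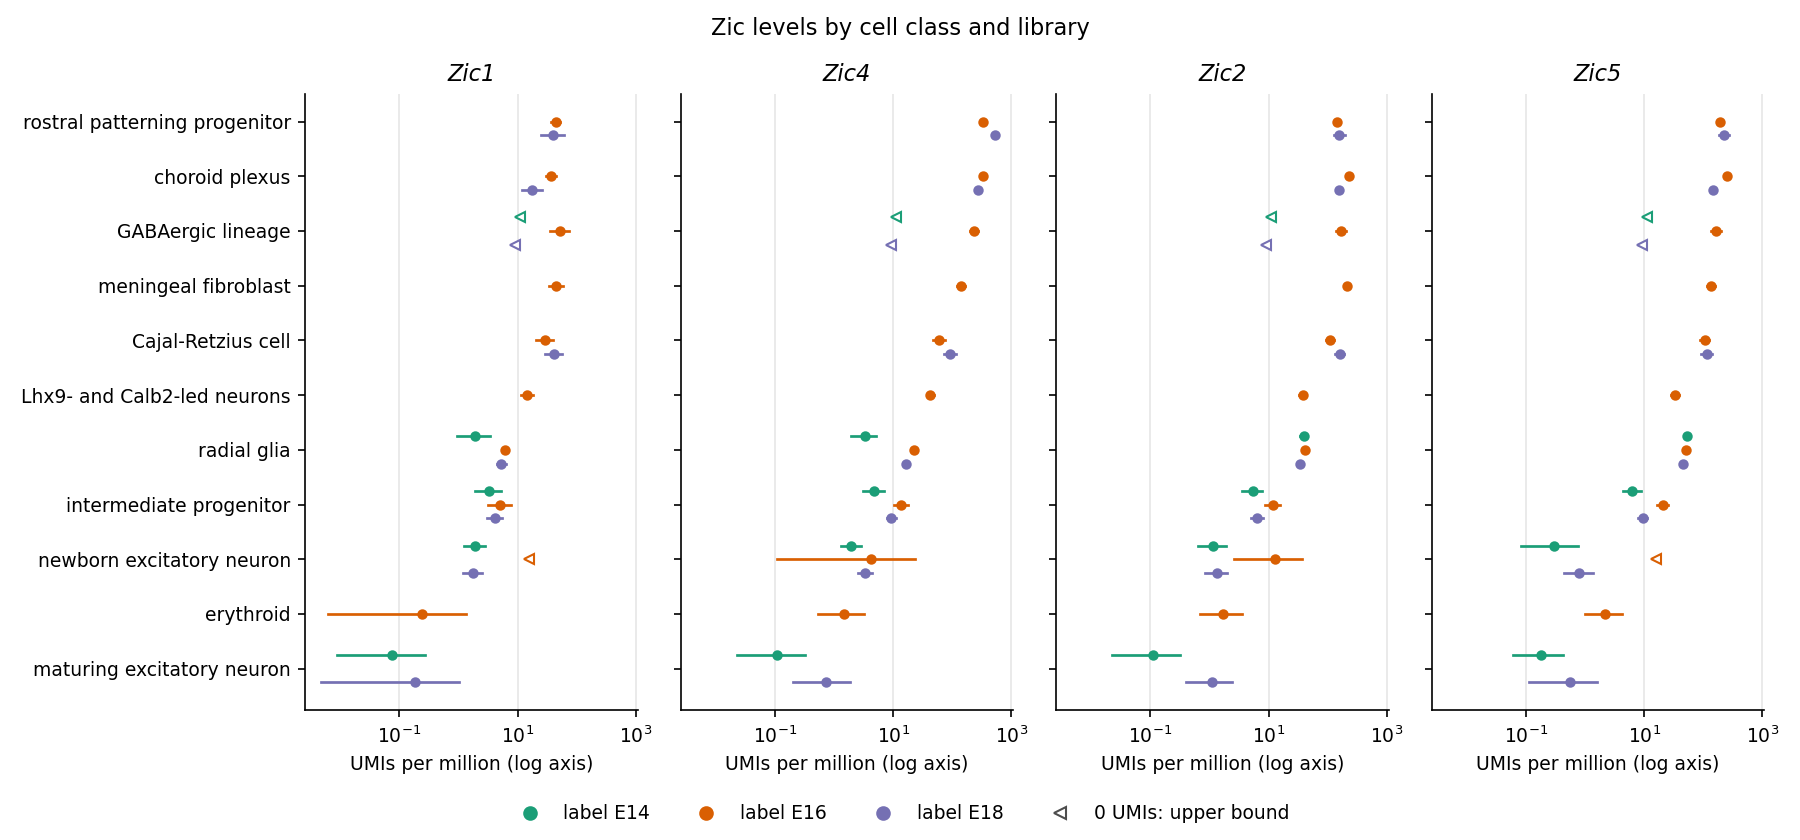
CPM (log axis) of Zic1, Zic4, Zic2 and Zic5 in each cell class of at least 30 cells, with points coloured by library label and lines for the exact 95% Poisson interval. Open triangles mark groups with 0 UMIs at their upper bound; for each gene the rostral patterning progenitors, choroid plexus cells, meningeal fibroblasts and Cajal-Retzius cells lie above radial glia, and the GABAergic cells of E14 and E18 held 0 UMIs.

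Because cell numbers differ, these small classes supplied much of the RNA. In E16 the rostral patterning progenitors, 6.03% of the kept cells, held 29.6% of all Zic4 UMIs, close to the 28.0% of the radial glia, which were 61.2% of the cells. Zic2 and Zic5 were spread differently, with 49.5% and 53.2% of their E16 UMIs in radial glia. In E14, radial glia were 9.19% of the cells and held 59.6% of the Zic2 and 72.0% of the Zic5 UMIs. Another 15.6% of the Zic2 and 6.35% of the Zic5 UMIs of E14 came from 7 endothelial cells. Zic1 and Zic4 differed there: newborn excitatory neurons, 34.9% of the E14 cells, held 36.8% of the Zic1 and 26% of the Zic4 UMIs, and intermediate progenitors another 25% of each. Over all kept cells the E14 library held 1.29, 1.89, 7.17 and 8.04 CPM of Zic1, Zic4, Zic2 and Zic5, the E16 library 10.8, 53.7, 53.8 and 62.1 CPM, and the E18 library 5.01, 23.1, 24.3 and 27.6 CPM. UMI counts are not scaled to gene length, so levels are compared between cells and not between genes.

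Radial glia, the dividing stem cells that line the ventricle, kept Zic2 and Zic5 at near the same level in all 3 libraries, while Zic1 and Zic4 were lower in E14. The class held 394, 3046 and 1784 cells in E14, E16 and E18 at median depths of 13082, 13557 and 12666.5 UMIs. Zic4 gave 19 UMIs in E14, which is 3.28 CPM (1.98 to 5.12), 1070 in E16, which is 22.8 CPM (21.5 to 24.2), and 414 in E18, which is 16.4 CPM (14.9 to 18.1). Zic1 gave 11 UMIs in E14 (1.90 CPM, 0.948 to 3.40), 283 in E16 (6.03 CPM, 5.35 to 6.78) and 134 in E18 (5.31 CPM, 4.45 to 6.29). For both genes the E14 interval lay below the other 2 and did not overlap them. Zic2 stood at 39.0 CPM in E14 (34.1 to 44.5), 40.5 in E16 (38.7 to 42.4) and 33.8 in E18 (31.6 to 36.2). Zic5 stood at 52.8 CPM in E14 (47.1 to 59.1), 50.2 in E16 (48.2 to 52.3) and 44.9 in E18 (42.3 to 47.6). For Zic2 and Zic5 the E14 interval overlapped those of both other libraries. Overlap does not mean equal levels, since the ratio interval of Zic5 for E18 over E14, given below, lay wholly under equality. So did those of Zic2 and Zic5 for E18 over E16.

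As a ratio of E16 over E14, Zic4 was 6.95-fold higher (4.43 to 11.6) and Zic1 3.18-fold higher (1.75 to 6.44), while Zic2 was at 1.04 (0.904 to 1.2) and Zic5 at 0.95 (0.843 to 1.07). Of the 3 members that averaged at least 5 CPM in the 2 groups, only Zic4 was at least 2-fold higher, beside 2.76% of the 9900 genes tested that were so and 8.12% that were at least 2-fold lower. Nothing is read from that count, since the members were chosen with these values known. In the E18 over E14 ratio, which shares the E14 library, Zic4 was at 5.00 (3.16 to 8.40), Zic1 at 2.80 (1.51 to 5.74), Zic2 at 0.867 (0.748 to 1.01) and Zic5 at 0.850 (0.748 to 0.967). Again Zic4 alone of the 3 members tested was at least 2-fold higher, beside 1.27% of genes higher and 3.73% lower. From E16 to E18 the ratios were 0.720 (0.641 to 0.807) for Zic4, 0.881 (0.712 to 1.09) for Zic1, 0.835 (0.769 to 0.906) for Zic2 and 0.894 (0.832 to 0.960) for Zic5, and 0 of 4 members reached 2-fold, beside 2.22% of genes higher and 0.908% lower. The median of all genes tested was shifted by -0.12, -0.06 and 0.07 on the log2 scale in these 3 ratios. With the Zic genes allowed into the clustering, the Zic4 ratio of E16 over E14 was 3.39 and that of E18 over E16 was 1.25, above 1. The E18 over E16 ratio of Zic4 was also above 1 when the libraries were clustered separately, and the E18 over E14 ratio was 7.57 under a stricter cell filter.

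**Figure D2:**
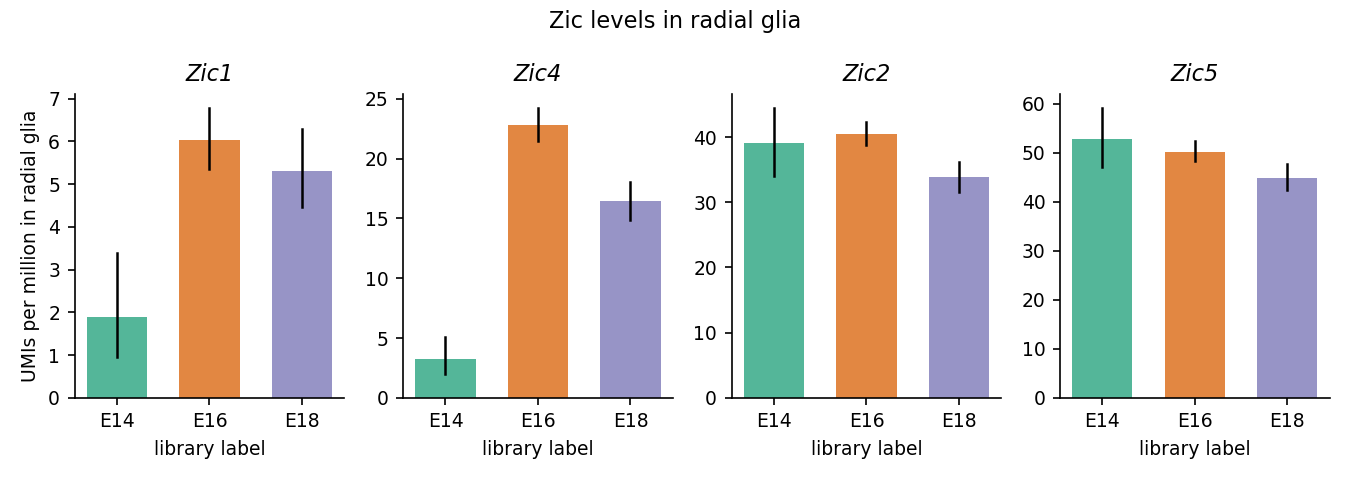
CPM of Zic1, Zic4, Zic2 and Zic5 in radial glia by library label (E14, E16, E18), every bar starting at 0 with its exact 95% Poisson interval and each panel with its own scale. Zic1 and Zic4 are lowest in E14, at 1.90 and 3.28 CPM, while Zic2 and Zic5 lie between 33.8 and 52.8 CPM in all 3 libraries.

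Different clusters made up the radial glia of each library, so the members are also given by cluster. Clusters 1, 2 and 9 held nearly all E16 radial glia, clusters 4 and 7 most of those of E18, and clusters 4, 7 and 22 most of those of E14. Cluster 1 was led mainly by DNA replication genes, with the hem gene Wnt8b also among its 10 leading genes; like clusters 2, 7 and 9, it had no radial glia marker among them. Without it, the E16 over E14 ratios were 5.53 for Zic4, 3.04 for Zic1, 1.06 for Zic2 and 0.988 for Zic5, and the E18 over E16 ratios were 0.798, 0.862, 0.798 and 0.835 in that order. In cluster 4, which E14 and E18 share, Zic4 stood at 2.91 CPM in 214 cells of E14 and 15.3 CPM in 827 cells of E18, and Zic2 at 33.9 and 23.1 CPM. In cluster 7, led by mitotic genes, Zic4 stood at 5.34 and 13.8 CPM and Zic2 at 39.4 and 38.7 CPM in 88 and 829 cells. Over both shared clusters the E18 over E14 ratio was 3.82 for Zic4, 3.01 for Zic1, 0.899 for Zic2 and 0.821 for Zic5.

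The E16 clusters resembled each other in Zic2 and Zic5 more than in Zic4. Clusters 1, 2 and 9 held 38.6, 40.3 and 43.0 CPM of Zic2 and 45.8, 51.0 and 54.3 CPM of Zic5, but 33.3, 16.6 and 20.4 CPM of Zic4, with cluster 1 highest (30.4 to 36.4). The few E18 cells in those clusters were not lower than the E16 cells beside them. In cluster 1, 52 cells of E18 held 87.1 CPM of Zic4 (66.3 to 112), 63.5 CPM of Zic2 (45.9 to 85.5) and 91.5 CPM of Zic5 (70.2 to 117), each above its E16 interval. In cluster 9, 50 cells of E18 held 86.6 CPM of Zic2 (57.6 to 125) and 105 CPM of Zic5 (72.8 to 147), also above E16. The E18 over E16 ratios of the whole class, all below 1, thus do not describe every cluster.

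At equal depth, the share of radial glia with a UMI of any Zic gene lay between 14.8% and 18.7% in the libraries, while single members differed more. After each cell was thinned to 2000 UMIs, any of the 4 genes was seen in 18.7% of E14 cells (15 to 22.9), 17.8% of E16 cells (16.4 to 19.2) and 14.8% of E18 cells (13.1 to 16.5). Without thinning the shares were 62.9%, 57.9% and 53.0%. For Zic4 alone the thinned shares were 0.769%, 4.10% and 2.15%, and for Zic2 9.23%, 7.17% and 5.37%. Erythroid cells, which should lack these genes, gave the background: 0 of 124 at 2000 UMIs in E16 (up to 2.93%), and 13.7% unthinned at a median depth of 32391 UMIs. Maturing neurons of E14 gave 0.0546%. The family's shares in radial glia were above that upper bound, while the thinned Zic1 shares of 1.03%, 1.06% and 0.679% and the Zic4 shares of E14 and E18 lay under it.

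Within radial glia, Zic4 RNA sat in a minority of cells. In E16 the tenth of cells with most Zic4, 305 of 3046, held 93.7% of its UMIs, and the same share of cells ranked by Zic2 or Zic5 held 53.3% and 51.3%. Sparse counts alone make such shares high for a low gene, so they are not compared between genes. The most Zic4 UMIs seen in 1 radial glial cell of E16 was 28, and 63 of its cells held at least 5. In E14 no radial glial cell held 5 UMIs of Zic4, and the most was 4.

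The ratio of Zic4 to Zic2 UMIs ranged widely over the classes. In radial glia it was 0.0841 (0.0497 to 0.134) in E14, 0.563 (0.522 to 0.607) in E16 and 0.485 (0.431 to 0.546) in E18. Rostral patterning progenitors had 2.32 (2.08 to 2.58) in E16 and 3.37 (2.64 to 4.33) in E18, and choroid plexus cells 1.44 and 1.75. Cajal-Retzius cells stayed near radial glia of E16, with 0.436, 0.549 and 0.571 in E14, E16 and E18, and meningeal fibroblasts had 0.677 and 0.707 in E16 and E18. The ratio of Zic5 to Zic2 was 1.35, 1.24 and 1.33 in radial glia of E14, E16 and E18, 1.36 and 1.43 in rostral patterning progenitors of E16 and E18, and 0.639 and 0.435 in meningeal fibroblasts. The annotated spans of Zic1 and Zic4 overlap in RefSeq GRCr8, while the counting used the build mRatBN7.2. Whether strand was used in the counting is not given in the sources used here. How reads of the shared stretch were assigned is therefore not known.

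Of the progenitor classes named here, the highest levels were in a cluster led by Fgf17 and Fgf8, ligands of the rostral signalling centre that sets the front of the cortex. It held 300 cells of E16, 41 of E18 and 6 of E14 and is called rostral patterning progenitors here. In E16 it gave 1132 Zic4 UMIs, or 328 CPM (309 to 348), 151 Zic1 UMIs, or 43.8 CPM (37.1 to 51.3), 488 Zic2 UMIs, or 141 CPM (129 to 155), and 665 Zic5 UMIs, or 193 CPM (178 to 208). Against E16 radial glia these were ratios of 14.4 for Zic4 (13.2 to 15.6), 7.25 for Zic1 (5.91 to 8.87), 3.49 for Zic2 (3.15 to 3.86) and 3.84 for Zic5 (3.52 to 4.18). All 4 were at least 2-fold higher, beside 6.23% of 9968 genes higher and 3.01% lower, and again the members were chosen with this pattern in view. All ratios to E16 radial glia below share that group. All 4 genes were seen together in 23% of these cells without thinning, against 2.82% of E16 radial glia and 0 of E14 radial glia.

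The 41 rostral progenitors of E18 held 530 CPM of Zic4 (471 to 594), 39.8 CPM of Zic1, 157 CPM of Zic2 and 224 CPM of Zic5. Zic4 was 1.62-fold higher than in E16 (1.42 to 1.84), and the intervals of the other 3 ratios included 1; none of the 4 reached 2-fold, beside 10.1% of genes higher and 6.35% lower. Markers of the choroid plexus, which lies next to the midline, moved with this difference: their summed level was 325 CPM in E16 (Kl at 0) and 2011 CPM in E18 (Kl and Prlr at 0), against 12.1 to 17.6 CPM in E16 radial glia and 37.9 to 42.9 CPM in those of E18. Their part in the Zic levels was not tested. GABAergic markers stood at 359 and 23.5 CPM and meningeal markers at 39.4 and 116 CPM in the rostral progenitors of E16 and E18. Of 12 hem and roof genes tested, 7 were at least 2-fold higher in E18 and 2 lower. Of the subpallial and septal genes 5 of 7 were lower, and of the pallial genes 4 of 9, with 0 higher in either list. The 2 groups thus differ in more than Zic4. With doublets removed at 2 times the rate the class held 14 cells of E18, and under a stricter cell filter 7.

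Other patterning genes of the rostral cluster are given by list, against E16 radial glia. Of the hem and roof genes, 8 of 9 tested were at least 2-fold higher, with Rspo3, a secreted amplifier of Wnt signals, and Bmp7, a bone morphogenetic protein, among them. Of the subpallial and septal genes, 7 of 7 were higher, among them Six3, a homeobox gene of the rostral forebrain. Of 10 pallial genes, 8 were at least 2-fold lower, including Lhx2, a transcription factor that sets up the cortex. Hedgehog reception genes were mixed, with 1 of 7 higher (Ptch1) and 3 lower (Gas1, Cdon and Boc, co-receptors for the ligand). None of the Gli and Glis genes tested, relatives of the Zic genes, reached 2-fold. Since the cluster was built from such genes, these counts describe it and test nothing.

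Dividing progenitors by a single ligand also gave Zic4 the largest ratio. Progenitors here are the radial glia and rostral patterning progenitors together. The 130 E16 progenitors with at least 1 Fgf17 UMI, of which 99 were in the rostral cluster, held 384 CPM of Zic4, 49.5 CPM of Zic1, 159 CPM of Zic2 and 221 CPM of Zic5. The 3216 without one held 31.7, 7.18, 43.5 and 54.3 CPM in that order. The ratios were 12.1 for Zic4 (11 to 13.3), 6.89 for Zic1 (5.37 to 8.76), 3.67 for Zic2 (3.22 to 4.16) and 4.07 for Zic5 (3.65 to 4.54). All 4 were at least 2-fold higher, beside 6.3% of genes higher and 3.03% lower, in a contrast that the choice of members used. Cells with Fgf17 were shallower, at a median of 10886.5 UMIs against 13337.5, and their choroid plexus markers summed to 251 CPM against 29.4 CPM (Kl at 0 in both, Prlr at 0 in the cells without Fgf17), whose part was not tested. With Fgf8 in place of Fgf17 the ratio for Zic1 was 4.03.

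Outside the rostral cluster the members were higher with Fgf17 too, in cells that are part of the contrast that the choice of members used. The 31 E16 radial glia with an Fgf17 UMI had ratios over the other 3015 of 14.2 for Zic4 (11.9 to 16.7), 8.81 for Zic1 (5.78 to 13.0), 3.97 for Zic2 (3.19 to 4.89) and 3.6 for Zic5 (2.93 to 4.38), beside 5.08% of genes at least 2-fold higher and 4.11% lower. Of the hem and roof genes tested in this division, 9 of 9 were at least 2-fold higher, and of the rostral patterning genes 5 of 7. The part of hem identity in these ratios was not tested. In E18, 15 progenitors with an Fgf17 UMI had ratios of 18.9 for Zic4 (14.9 to 23.8), 5.54 for Zic1 (2.0 to 12.3), 3.32 for Zic2 and 3.50 for Zic5. Of those 15 cells, 12 were in the rostral cluster.

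The same division was made by a UMI of each gene of the position lists. Over 11 rostral patterning genes with enough positive cells in E16 progenitors, Zic4 was at least 2-fold higher with 11, Zic1 with 10, and Zic2 and Zic5 with 9 each, at median ratios of 5.69, 4.48, 2.35 and 2.51. Over all 13327 genes that could divide these cells with at least 30 on each side, Zic4 was at least 2-fold higher with 5.72% and lower with 6.3%, Zic1 with 4.32% and 3.38%, Zic2 with 1.54% and 0.27%, and Zic5 with 1.32% and 0.128%. For Dusp6, a feedback inhibitor of FGF signalling, the ratios were 9.0 for Zic4, 6.19 for Zic1, 3.09 for Zic2 and 2.92 for Zic5. For Etv1, a transcription factor downstream of FGF, they were 4.67, 3.56, 1.90 and 1.58 in the same order. With 11 hem and roof genes, Zic4 was at least 2-fold higher with 10, Zic1 and Zic5 with 9 and Zic2 with 7. Outside the rostral cluster, Zic1 and Zic4 were at least 2-fold higher with 8 of 9 rostral patterning genes, but Zic2 and Zic5 with 5. Of 7 hem and roof genes there, Zic4 was higher with 6, Zic1 with 5 (and lower with 1), and Zic2 and Zic5 with 3 each. Over all 13048 genes that could divide the cells there, Zic4 was at least 2-fold higher with 5.97% and lower with 4.26%. The shares were 5.29% and 2.7% for Zic1, 1.15% and 0.138% for Zic2, and 0.95% and 0.023% for Zic5.

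Wnt8b, a Wnt ligand of the hem and its border, went with ratios of 2.29 for Zic1, 1.92 for Zic4, 2.34 for Zic2 and 2.05 for Zic5. Rspo3 gave 4.55, 10.6, 3.83 and 3.74 in that order. Among 6 subpallial and septal genes Zic1 was at least 2-fold higher with 6, Zic4 with 4, and Zic2 and Zic5 with 2 each. Six3 gave 8.26 for Zic1, 11.2 for Zic4, 3.65 for Zic2 and 3.86 for Zic5, while Dlx1, a gene of GABAergic progenitors, gave 3.06, 1.66, 1.14 and 1.25.

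In E16 progenitors pallial genes ran the other way, and more of them for Zic1 and Zic4. Over 10 such genes, cells with a UMI were at least 2-fold lower in Zic4 for 9, in Zic1 for 6, and in Zic2 and Zic5 for 2 each. Nr2f1, a nuclear receptor of the caudal cortex, gave the lowest values, with 0.0750 for Zic4 (0.0660 to 0.0851), 0.115 for Zic1, 0.421 for Zic2 and 0.507 for Zic5. Outside the rostral cluster Nr2f1 still gave 0.0839 for Zic4 and 0.126 for Zic1, but only 4 of 10 pallial genes were at least 2-fold lower for Zic4, 3 for Zic1, 1 for Zic2 and 0 for Zic5. There Lhx2 gave 0.255 for Zic4 and 1.44 for Zic5. In E18 Nr2f1 gave 0.0668 for Zic4 and 0.161 for Zic1, beside 0.547 for Zic2 and 0.583 for Zic5. Of the 10 pallial genes in E18 progenitors, 6 put Zic4 and 4 put Zic1 at least 2-fold lower. Over all 11908 genes that could divide those cells, 5.16% put Zic4 and 2.19% put Zic1 so low. Outside the rostral cluster of E18 the pallial genes went both ways. For Zic4, 1 gene was at least 2-fold higher and 2 lower (median ratio 1.13), and for Zic1 2 were higher and 3 lower (median 1.04). Over all 11805 genes that could divide the cells there, Zic4 was higher with 15.1% and lower with 4.2% (median 1.32). Zic1 was higher with 14.8% and lower with 2.3% (median 1.41). Both medians of the pallial list lay below those of all genes.

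Genes of hedgehog reception, the pathway that is also disturbed in holoprosencephaly, showed smaller ratios. Of 9 such genes in E16 progenitors none put Zic2 or Zic5 2-fold in either direction, and for Zic4 1 was higher and 3 lower, or 1 higher and 1 lower outside the rostral cluster. Cdon gave 0.328 for Zic4 and 0.742 for Zic2, Gas1 0.431 and 0.791, and Boc 0.490 and 0.802. Gli2 and Gli3, the transcription factors at the end of the pathway, gave 0.705 and 0.824 for Zic4 and 0.980 and 1.05 for Zic2.

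**Figure D3:**
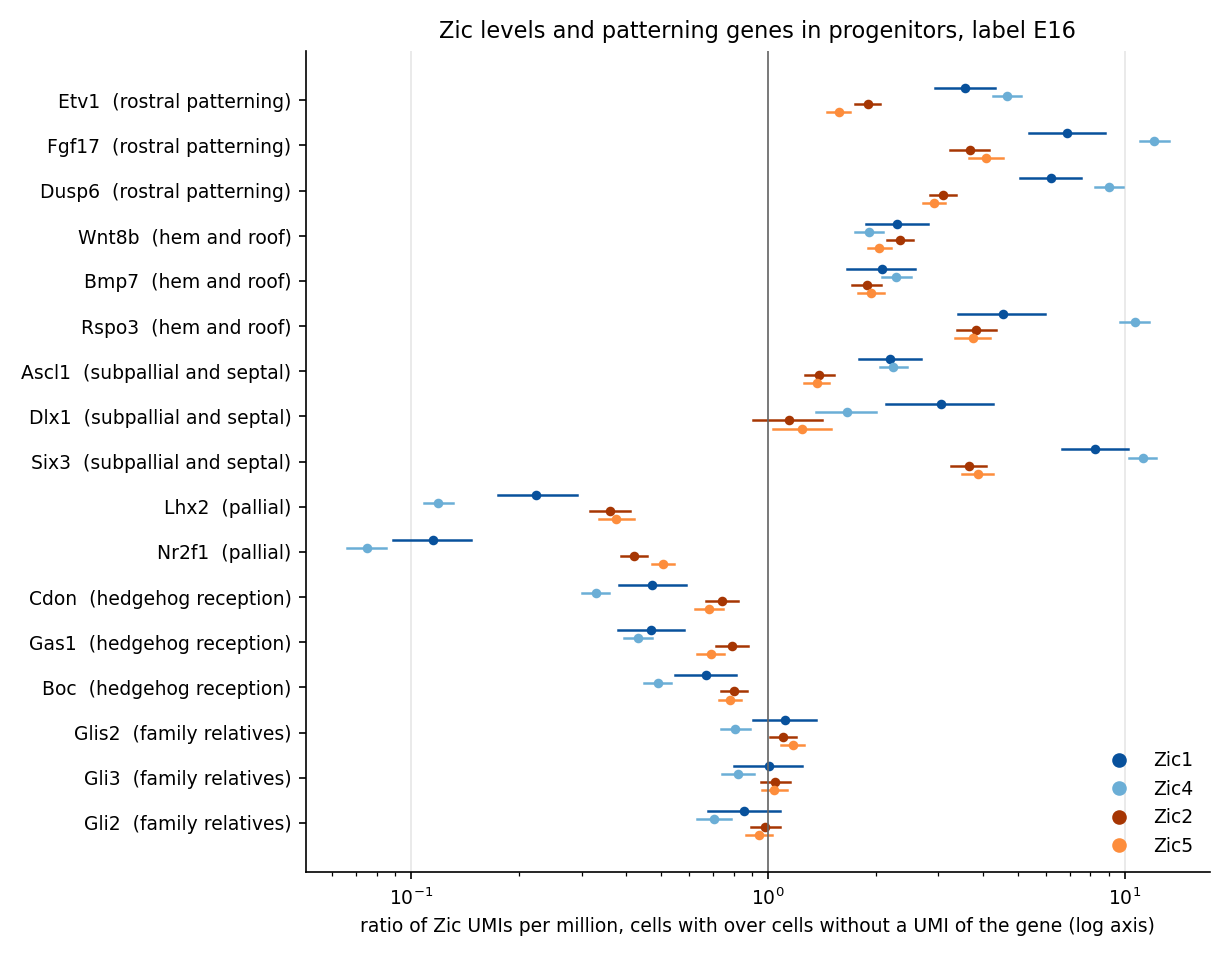
Ratio (log axis) of Zic1, Zic4, Zic2 and Zic5 CPM in E16 progenitors with at least 1 UMI of the gene at left over progenitors without one, for up to 3 of the highest genes of each list, with exact 95% intervals. Zic4 reaches 12.1 for Fgf17 and is 0.0750 for Nr2f1, while Zic2 and Zic5 of the genes shown lie between 0.360 and 4.07.

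Progenitors were also divided by Zic1 and by Zic2 themselves. The 328 E16 progenitors with a Zic1 UMI, 109 of them rostral, exceeded the 3018 without by 8.66-fold for Six3, 8.54-fold for Rspo1, 7.89-fold for Otx2, 7.40-fold for Fgf8, 6.72-fold for Rspo3 and 5.73-fold for Dusp6. Kitlg, the ligand of the Kit receptor, was 7.12-fold higher and Prtg, a cell surface protein, 6.97-fold higher. The lowest were Fgfr3, an FGF receptor, at 0.163, Nr2f1 at 0.178, Hopx at 0.303 and Lmo3 at 0.368. In E18 the same division gave 14.4 for Otx2, 12.3 for Rspo3, 0.198 for Fgfr3 and 0.176 for Nr2f1, and in E14, where only 10 progenitors had a Zic1 UMI, Nr2f1 stood at 0.828 (0.635 to 1.06) and Fgfr3 at 1.48 (1.03 to 2.06).

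The 1281 E16 progenitors with a Zic2 UMI, 193 of them rostral, exceeded the 2065 without by 5.01-fold for Zic4, 4.91-fold for Otx2, 4.13-fold for Wnt8b, 4.08-fold for Id3 and 3.95-fold for Dusp6. Id3 is a target of bone morphogenetic protein signals, and Otx2 a homeobox gene of the midline and choroid plexus. The lowest were Angpt1 at 0.492 and Eomes, the regulator of intermediate progenitors, at 0.502. In E18 Zic4 was at 6.88, Id3 at 5.97 and Eomes at 0.566, and in E14 Zic4 stood at 1.08, Id3 at 0.926 and Eomes at 0.911.

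Cajal-Retzius cells, the reelin-secreting neurons of the cortical surface, held more of each Zic gene than radial glia in all 3 libraries. The class held 16, 135 and 68 cells in E14, E16 and E18, and its markers summed to 9889, 3722 and 6465 CPM, with Ndnf at 0 in E16. Zic2 stood at 123, 109 and 159 CPM, Zic5 at 141, 106 and 114 CPM, Zic4 at 53.4, 60.0 and 91.1 CPM and Zic1 at 37.7, 28.8 and 41.0 CPM. Against E16 radial glia the E16 ratios were 4.77 for Zic1 (3.26 to 6.79), 2.63 for Zic4 (2.05 to 3.34), 2.70 for Zic2 (2.25 to 3.22) and 2.11 for Zic5 (1.76 to 2.52). All 4 were at least 2-fold higher, beside 18.2% of genes higher and 16.1% lower. With E18 the ratios were 7.71 for Zic1, 5.55 for Zic4, 4.71 for Zic2 and 2.54 for Zic5. In E14, where radial glia had little Zic1 and Zic4, the ratios were 19.8 for Zic1 (8.02 to 49.6) and 16.3 for Zic4 (7.95 to 33.1), but 3.14 for Zic2 and 2.68 for Zic5. With the Zic genes allowed into the clustering the E16 ratio for Zic4 was 5.40.

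Between E16 and E18 the Cajal-Retzius levels differed less than 2-fold for 4 of 4 members, beside 7.96% of genes higher and 5.15% lower. The E18 over E16 ratio was 1.52 for Zic4 (1.09 to 2.11), 1.46 for Zic2 (1.14 to 1.86), 1.42 for Zic1 (0.869 to 2.34) and 1.07 for Zic5 (0.819 to 1.41). Tp73, a p53 relative that marks Cajal-Retzius cells of hem and septal origin, was seen in 203 of the 219 cells. Those cells were not higher in Zic genes than the 16 without a Tp73 UMI: the ratio was 0.467 for Zic4 (0.304 to 0.746), 0.564 for Zic2 (0.402 to 0.810), 0.588 for Zic1 (0.302 to 1.28) and 0.708 for Zic5 (0.478 to 1.09). Of the 4, only Zic4 was at least 2-fold lower, beside 8.58% of genes lower and 11% higher. At 2000 UMIs, 62.5%, 44.4% and 51.5% of the Cajal-Retzius cells of E14, E16 and E18 had a Zic UMI.

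Meningeal fibroblasts, the collagen-producing cells of the brain's covering, had more of each Zic gene than radial glia. The 93 cells of E16 held 210.2 CPM of Zic2 (186 to 237), 142 CPM of Zic4 (122 to 165), 134 CPM of Zic5 (115 to 156) and 45.0 CPM of Zic1 (34.1 to 58.3). Over E16 radial glia the ratios were 7.46 for Zic1 (5.51 to 9.95), 6.23 for Zic4 (5.29 to 7.31), 5.19 for Zic2 (4.55 to 5.90) and 2.68 for Zic5 (2.28 to 3.13), all at least 2-fold higher, beside 17.8% of genes higher and 15.5% lower. The 20 cells of E18 held 271 CPM of Zic2, 192 CPM of Zic4, 118 CPM of Zic5 and 47.2 CPM of Zic1. With the Zic genes allowed into the clustering the E16 ratio for Zic4 was 12.8, and when the libraries were clustered separately it was 3.41 on the log2 scale, against 2.64 for the ratio above. Mural cells, the contractile cells of vessels, also held Zic2, with 94.6 CPM in 14 cells of E16 and 118 CPM in 15 cells of E18. The 17 endothelial cells of E16 held 53.3 CPM of Zic2 and 40.8 CPM of Zic5, with Zic1 and Zic4 at 0 UMIs. Only 7 endothelial cells were kept in E14, but they held 59 Zic2, 27 Zic5, 6 Zic4 and 1 Zic1 UMIs.

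Choroid plexus cells, the epithelium that makes cerebrospinal fluid, reached Zic4 levels like those of the rostral progenitors. In E16, 148 cells held 329 CPM of Zic4 (308 to 351), 251 CPM of Zic5 (233 to 270), 228 CPM of Zic2 (211 to 247) and 36.3 CPM of Zic1 (29.6 to 44.0). Over E16 radial glia the ratios were 14.4 for Zic4, 6.01 for Zic1, 5.64 for Zic2 and 5.00 for Zic5, beside 17.6% of genes at least 2-fold higher and 6.51% lower. All 15 hem and roof genes were higher there, and at a finer clustering the class split into 81 choroid plexus-like and 67 cortical hem-like cells of E16. The hem-like cells held 247 CPM of Zic4 (219 to 279) against 379 CPM (351 to 409) in the others, and 269 CPM of Zic5 (239 to 302) against 239.7 CPM (217 to 264). Summed over the Zic genes, the hem-like cells of E16 held 794 CPM (742 to 849), above the 706 CPM of the rostral patterning progenitors of E16. The 15 hem-like cells of E18 held 904 CPM (782 to 1040), against 951 CPM in the rostral patterning progenitors of E18. In E18 the 53 cells of the undivided class held 274 CPM of Zic4, 157 CPM of Zic2, 146 CPM of Zic5 and 17.7 CPM of Zic1.

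GABAergic cells divided into a Zic-rich and a Zic-free cluster. The cluster with Isl1, a homeobox gene of striatal and septal neurons, among its leading genes held 72 cells, 71 of them of E16, with 137 Zic4, 99 Zic2, 98 Zic5 and 31 Zic1 UMIs, or 239.9 CPM, 173 CPM, 172 CPM and 54.3 CPM. The cluster with Sst, the somatostatin gene of cortical interneurons, among its leading genes held 128 cells, of which 55 were of E14, 3 of E16 and 70 of E18, and 0 UMIs of any of the 4 genes. Against a floor of 3 counts over the Sst-led cluster, the Isl1-led cells were at least 60.6-fold higher in Zic4, 43.8-fold in Zic2, 43.3-fold in Zic5 and 13.7-fold in Zic1. All 4 members passed 2-fold, beside 10.2% of genes higher and 14.8% lower. The clusters come from different libraries, so cluster and library cannot be told apart, and their median depths were 7457 and 5743.5 UMIs. Lhx8, a gene of septal and cholinergic neurons, and Six3 were also higher in the Isl1-led cells, and Lhx6, a gene of migrating cortical interneurons, was lower.

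A cluster of 614 E16 neurons led by Lhx9 and Calb2 was given no cell type, and in it the members parted. It held 14.5 CPM of Zic1 and 42.6 CPM of Zic4, ratios to E16 radial glia of 2.40 (1.85 to 3.09) and 1.87 (1.62 to 2.15). Zic2 at 37.6 CPM was at a ratio of 0.928 (0.801 to 1.07) and Zic5 at 33.7 CPM was lower, at 0.670 (0.575 to 0.778). Only Zic1 of the 4 reached 2-fold, beside 14.9% of genes higher and 17.4% lower.

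Along the excitatory lineage, Zic2 and Zic5 were already low in intermediate progenitors, where Zic1 and Zic4 lay nearer to radial glia. Intermediate progenitors, the cells between radial glia and neurons, stood at 0.292 of the radial glia level in E16 for Zic2 (0.217 to 0.384) and 0.412 for Zic5 (0.330 to 0.508), but 0.597 for Zic4 (0.453 to 0.775) and 0.828 for Zic1 (0.511 to 1.28). In E16, 2 of 4 members were at least 2-fold lower, beside 8.62% of genes lower and 5.36% higher. In E18 the ratios were 0.189 for Zic2, 0.211 for Zic5, 0.571 for Zic4 and 0.765 for Zic1, with 2 of 3 members tested lower, beside 7.88% of genes lower and 5.03% higher. In E14 Zic2 and Zic5 were at 0.137 and 0.119, 2 of 2 tested, beside 9.54% of genes lower and 5.1% higher, while Zic4 at 1.45 (0.769 to 2.79) and Zic1 at 1.71 (0.754 to 4.03) had intervals that included 1. In newborn neurons of E14, Zic1 was at 1.00 of the radial glia level (0.475 to 2.25) and Zic4 at 0.602 (0.321 to 1.15), against 0.0292 for Zic2 and 0.00575 for Zic5. Newborn neurons of E18 held 31 Zic1 and 58 Zic4 UMIs, 0.336 and 0.203 of the radial glia level, against 0.0391 for Zic2 and 0.0179 for Zic5.

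Among the intermediate progenitors themselves, the class level was highest in E16. Zic5 stood at 6.30 CPM in E14, 20.7 CPM in E16 and 9.46 CPM in E18, and Zic2 at 5.34, 11.8 and 6.39 CPM. The E16 over E14 ratio was 3.28 for Zic5 (2.18 to 5.05), 2.86 for Zic4 (1.76 to 4.76), 2.21 for Zic2 (1.37 to 3.64) and 1.54 for Zic1 (0.781 to 3.09). All 3 members tested were at least 2-fold higher, beside 4.06% of genes higher and 9.85% lower. The class was made up differently in each library: 316 of 455 E14 cells were in cluster 6, led by Efl1 and Eomes, while 200 and 105 of 372 E16 cells were in clusters 11 and 15, which had histone and mitotic genes among their leading genes. In cluster 6, the 67 cells of E16 held 0 Zic5 UMIs and 1 of Zic4, and the 316 of E14 held 18 and 13. In cluster 11, Zic5 stood at 8.56 CPM in E14 (4.42 to 14.9) and 26.0 CPM in E16 (20.1 to 33.1), and Zic4 at 2.14 (0.441 to 6.25) and 20.9 CPM (15.7 to 27.3). In cluster 15, Zic4 stood at 14.7 CPM in E14 (6.73 to 28.0) and 4.67 CPM in E16 (1.71 to 10.2), so the class ratio does not describe every cluster.

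A progenitor of E16 with one Zic gene was more likely to hold another. At 2000 UMIs per E16 progenitor, Zic4 was found in 23 of 55 cells with Zic1, or 41.8% (28.7 to 55.9), against 6.55% (5.72 to 7.45) of cells without it. Zic5 was found in 58 of 282 cells with Zic2, or 20.6% (16 to 25.8), against 9.87% (8.83 to 11). The pairs that are not genomic neighbours also went together: Zic5 was in 29.5% of cells with Zic4 against 9.33%, and Zic2 in 21.1% against 7.52%. Outside the rostral cluster Zic4 was found in 11 of 32 cells with Zic1, or 34.4% (18.6 to 53.2), against 3.78%, and Zic5 in 14.7% (10.3 to 20.2) of cells with Zic2, against 7.94%.

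In E18 progenitors the link of Zic2 with Zic5 was not detectable at this depth, with 9.62% (4.71 to 17.0) against 7.87% (6.63 to 9.25). Zic4 with Zic5 still differed there, with 21.0% (11.7 to 33.2) against 7.51% (6.31 to 8.85), and Zic4 was in 3 of 15 cells with Zic1. Outside the rostral cluster of E18 the intervals overlapped, with Zic5 in 15.8% of cells with Zic4 (6.02 to 31.3) against 7.40% (6.21 to 8.73), and Zic2 in 10.5% (2.94 to 24.8) against 5.26% (4.26 to 6.42). In E14 4 progenitors held Zic1 at this depth and 3 held Zic4, too few to compare.

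**Figure D4:**
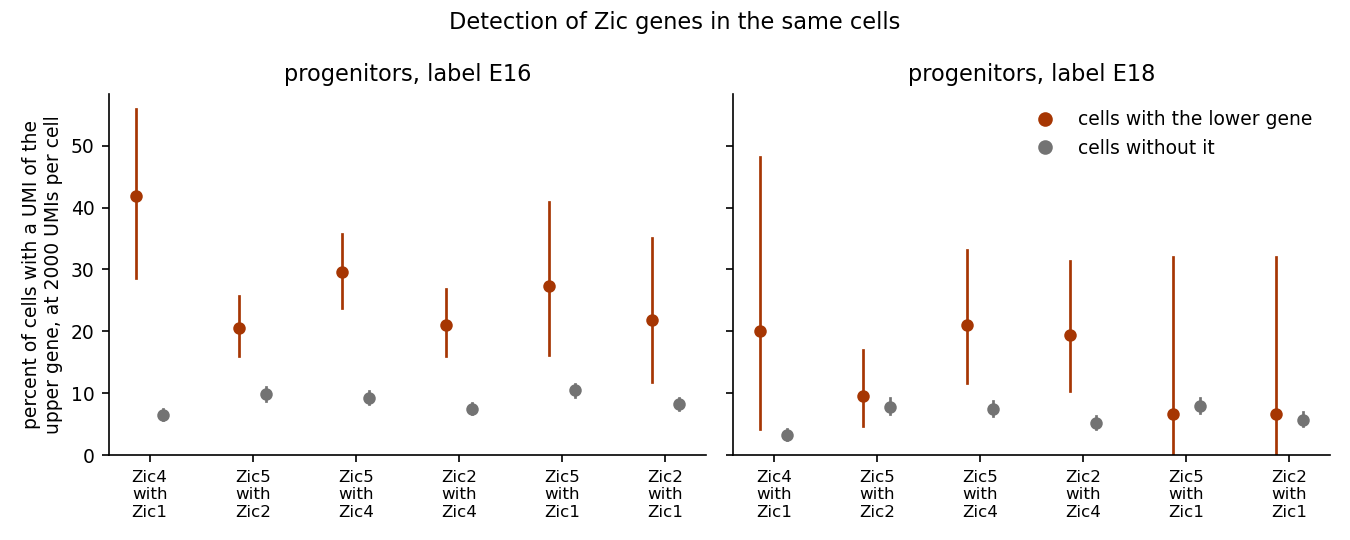
Percent of progenitors with a UMI of the upper gene among cells with (brown) and without (grey) a UMI of the lower gene, each cell thinned to 2000 UMIs, in the libraries labelled E16 and E18, with exact 95% intervals. In E16 the brown point of each of the 6 pairs lies above its grey point with no overlap of the intervals, and in E18 the intervals overlap for Zic2 with Zic5 and for Zic1 with Zic2 or Zic5.

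Across 23 class and library groups the 5 genes most like each member included the other 3 members. On log2(CPM + 1) the Pearson correlation was 0.957 for Zic1 with Zic4 and 0.957 for Zic2 with Zic5, out of 10218 genes compared. The closest genes outside the family were Rtkn for Zic1 at 0.924, Mxra7 for Zic4 at 0.909, and Acadm for Zic2 and Zic5 at 0.890 and 0.933. The groups share libraries and include cells with few UMIs, so these values are a description.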

How the data were processed

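Single cells were measured with the 10x Single Cell 3' kit v3.1 and a NovaSeq 6000, per the labels' protocols. The deposited files hold UMI counts per gene and cell barcode, made by the authors with Cell Ranger 6.0.1 on mRatBN7.2, per the submitters' processing notes. Of 7100, 6707 and 6937 barcodes in E14, E16 and E18, those with at least 1000 genes and at most 10% mitochondrial UMIs were kept, and 158, 216 and 259 likely doublets, scored against simulated ones at 0.8% per 1000 cells, were left out. All libraries were clustered together with Scanpy 1.11.5 (2000 variable genes without the Zic genes, 30 principal components, 15 neighbours) and leidenalg 0.10.2 at resolution 1.0. The 27 clusters were named from 142 marker symbols, of which 141 are in the files, and 1 stayed unnamed; the naming reference and marker rule were settled after the clusters were seen. Counts were summed per class and library and given as CPM with exact 95% Poisson intervals; ratios have exact conditional binomial intervals and shares exact Clopper-Pearson intervals (SciPy 1.17.1). Genes averaging at least 5 CPM entered counts of 2-fold differences, and a floor of 3 counts stood for 0. The code for ratios was tested on simulated data. With 1 library per label there are no replicates, no test and no p-value.

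Named genes are the members, the 5 genes most like each, the 10 highest and lowest companions of Zic1 and Zic2, and the 3 genes of each list highest in E16 progenitors. Other genes and the clusters singled out, such as Isl1, Sst, Lhx6, Lhx8, Lhx9, Calb2 and Ptch1, were chosen after their values were seen. The members and gene lists were chosen with earlier results of these data known. RefSeq tables held 87.9% of the symbols, and the Zic1 promoter is not used here. Some genes that this rule names are not reported here. Alternatives were other filters, doublet rates, clusterings, thinning depths and Fgf gates; leaving out cluster 1 or the rostral cluster, and clusters 4 and 7 alone, and the division by every gene, were added after seeing the data.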

Additional observations from a re-analysis of the deposited data

Results flagged for a closer look

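Zic RNA was also present in the barcodes that no comparison used, those left out by the gene, mitochondrial and doublet filters, and it lay above the 3 counts taken as a floor. The left-out barcodes held 155 Zic UMIs in E14 (2814 barcodes, 15.7 CPM), 1480 in E16 (1730 barcodes, 153 CPM) and 763 in E18 (1506 barcodes, 86.6 CPM). The kept cells of the same libraries held 18.4, 180.4 and 80.0 CPM, so the libraries stood in the same order in both.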

How the results depend on the processing

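No paired analysis was possible because each label has 1 library. Ratios here are for the sum of the 4 Zic genes on the log2 scale, and the cause of each change was not tested. The stricter cell filter (at least 2000 genes, at most 5% mitochondrial UMIs) gave 0.15 for E16 over E14 in radial glia (0.30 in the report's setting), -0.16 for E18 over E16 (-0.25) and 1.96 for meningeal cells over radial glia (2.15). It gave no value for Cajal-Retzius cells. The looser filter (500 genes, 20%) gave -0.18 for E18 over E16. Without doublet removal the Fgf17 ratio was 2.47 (2.57), and at 2 times the doublet rate E18 over E16 was -0.36. With separate clustering of the libraries E18 over E14 was 0.27 (0.05), E18 over E16 turned to 0.067, the meningeal ratio was 2.38 and the Fgf17 ratio 2.71. There Zic5 in E18 over E14 turned to 0.016, and Zic4, Zic2 and Zic5 in E18 over E16 to 0.16, 0.035 and 0.038. With the Zic genes allowed into the clustering E16 over E14 was 0.033, E18 over E16 was -0.049, with Zic4 turning to 0.32, the Cajal-Retzius ratio was 1.62 (1.35) and the meningeal ratio 2.42. A gate of at least 2 Fgf17 UMIs gave 2.79 and of 1 Fgf8 UMI 2.36. The share of radial glia with a Zic UMI in E14, E16 and E18 (18.7%, 17.8% and 14.8%) was 7.87%, 9.78% and 8.02% at 1000 UMIs, 27.6%, 29.6% and 24.3% at 2 times the depth of 2000 UMIs, and 62.9%, 57.9% and 53.0% without thinning. It was 13.0% in E14 under the stricter filter, 13.1% in E18 without doublet removal and 12.3% at 2 times the rate, and in E16 15.4% with separate clustering and 15.7% with the Zic genes allowed. Of 212 values of single members, 182 stayed within their interval, 25 moved beyond it and 5 reversed, and of 86 values of the family 56 stayed, 29 moved and 1 reversed. Depth limits Zic1 and Zic4 in E14 most, with 11 and 19 UMIs in radial glia.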
